A study of Mus musculus with 12 samples.

Results

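The genes described here are Slc4a2, Slc26a7, Slc12a2, Car2 and Aqp4, which encode bicarbonate, chloride and water transport proteins of acid-secreting tissue and the carbonic anhydrase that supplies them. Every probe set of the deposited table that carried one of these symbols was taken, whatever its values, which gave 8 probe sets of the 22626 tested. They stand for 5 of the 12393 genes with a symbol on the array, with 1 probe set each for Slc4a2, Slc26a7 and Car2, 2 for Aqp4 and 3 for Slc12a2.

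The study asked how gene expression in the acid-secreting stomach depends on gastrin, the hormone of the gastric antrum, and on its relative cholecystokinin (CCK). The samples were RNA from mucosa scraped off the fundus of mice, hybridised to 12 one-colour oligonucleotide arrays, 3 in each of 4 groups. The gastrin-infused knockout was a gastrin knockout that received gastrin for 1 week. The double knockout lacked gastrin and CCK, and no infusion was described for it. The saline-infused knockout was a gastrin knockout that received saline for 1 week, from male mice 2 months old. The wild type carried both genes, had no described infusion, and its RNA came from approximately 2 to 4 mice, without a statement of how they were spread over the arrays. Age and sex were given only for the saline-infused knockout, and comparisons of an infused with an uninfused group differ in infusion as well as genotype. Nothing in the labels says that the arrays of the knockout groups came from separate animals, so the p-values measure the spread between these arrays, part of which may be technical. A scraping holds many cell types, so fewer parietal cells and less RNA per parietal cell cannot be told apart.

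The parietal cell pumps protons into the gastric gland and, for each proton, must dispose of a bicarbonate ion across its opposite, basolateral membrane. Carbonic anhydrase 2, encoded by Car2, makes protons and bicarbonate from carbon dioxide and water in the cytosol. The anion exchanger AE2, encoded by Slc4a2, carries the bicarbonate out in exchange for the chloride that is then secreted as hydrochloric acid, and Slc26a7 encodes a second basolateral chloride and bicarbonate transporter of these cells. Slc12a2 encodes NKCC1, which brings sodium, potassium and chloride into the cell together, and Aqp4 encodes a basolateral water channel of parietal cells and of astrocytes.

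The DNA before a gene's start was used for 1 of the 5 genes, Slc4a2, whose intensity also separated all arrays with gastrin from all arrays without it. Sequences of Slc26a7, Slc12a2, Car2 and Aqp4 are not shown here. The RefSeq table used here (build GRCm38.p6) lists more than 1 start for Slc4a2, on chromosome 5, and 2 windows of 250 bases before a start are printed 5′ to 3′. Capitals mark the only match to the searched motifs.
Slc4a2 window 1, chr5:24424982-24425231, plus strand: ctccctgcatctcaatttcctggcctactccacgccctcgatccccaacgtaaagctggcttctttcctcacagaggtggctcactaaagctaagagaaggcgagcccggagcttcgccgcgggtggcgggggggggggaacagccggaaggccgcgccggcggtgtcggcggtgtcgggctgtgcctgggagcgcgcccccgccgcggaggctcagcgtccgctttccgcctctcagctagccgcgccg
Slc4a2 window 2, chr5:24425594-24425843, plus strand: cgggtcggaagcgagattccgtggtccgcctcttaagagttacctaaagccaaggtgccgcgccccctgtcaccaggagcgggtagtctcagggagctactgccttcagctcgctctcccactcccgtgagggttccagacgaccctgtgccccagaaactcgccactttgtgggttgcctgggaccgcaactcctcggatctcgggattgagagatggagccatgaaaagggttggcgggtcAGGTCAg
The letters searched on both strands were TATAAA of the TATA box (in 12.4% of 32817 windows of the same length in that table), GGGCGG of the GC box (32.7%), AGATAA of GATA factors (9.99%), AGGTCA of many nuclear receptors (14%) and CACGTG of the E-box (6.02%). Window 1 held none of them, and window 2 held AGGTCA once on the plus strand from position -7 before the start. Guanine and cytosine made up 69.2% of window 1 and 61.2% of window 2, against a median of 52.4% over all windows. A match of letters is a description and not a binding site.

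The array medians lay between 403 and 421 intensity units, and every value of the 8 probe sets lay above the noise of its array, which was 67 to 96 units. The targeted gene followed the labels: Gast averaged -49.7 ± 19.9 units in the gastrin-infused knockout, -87 ± 66.6 in the double knockout and 20 ± 24.4 in the saline-infused knockout, against 579 ± 253 in wild type (SD, n = 3 each). Cck was within or near the noise in all groups and checks nothing. Atp4b, a subunit of the proton pump that defines parietal cells, read 47678 units or more on every array. The arrays differed in RNA quality and at the bright end. The Gapdh control, read near its 3′ end over near its 5′ end, gave ratios of 1.51 and 2.00 on 2 wild-type arrays and 0.98 to 1.32 on the other 10. Among the 243 probe sets with a mean of 20000 units or more, the median on an array averaged 24301 ± 1002 units in the double knockout, 30583 ± 905 in the gastrin-infused knockout, 32166 ± 1855 in the saline-infused knockout and 30727 ± 2347 in wild type.

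Across the 8 probe sets, gastrin infusion of the knockout raised Slc4a2 and the brighter Aqp4 probe set, 2 probe sets in all, against 1.25% of all probe sets past the test in either direction and 0.773% past it upward (limma, Benjamini-Hochberg adjusted p under 0.05 over all probe sets, as for every test given here). In the saline-infused knockout relative to wild type 1 of the 8, Slc4a2, fell, against 2.08% of all probe sets past the test and 1.37% past it downward. The gastrin-infused knockout had none of the 8 past the test against wild type, where 0.11% of all probe sets passed. An unadjusted p under 0.05 was found there for 2 of the 8 and for 2619 of all 22626 probe sets. The double knockout also had none past the test against wild type, where 4.14% of all passed. There 2 of the 8 and 4442 of all 22626 probe sets had an unadjusted p under 0.05. Against the saline-infused knockout, the double knockout had 1 lower, Car2, where 5.98% of all probe sets passed and 2.76% passed downward. Against the double knockout, the gastrin-infused knockout had 3 higher, Slc4a2, the brighter Aqp4 probe set and Car2, where 5.83% of all passed and 2.75% passed upward. The comparisons share arrays, so these counts are not independent of one another. Each of these calls except that of Car2 in the double against the saline-infused knockout was lost in some of the fits that left out 1 array, as given beside each gene.

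**Figure D1:**
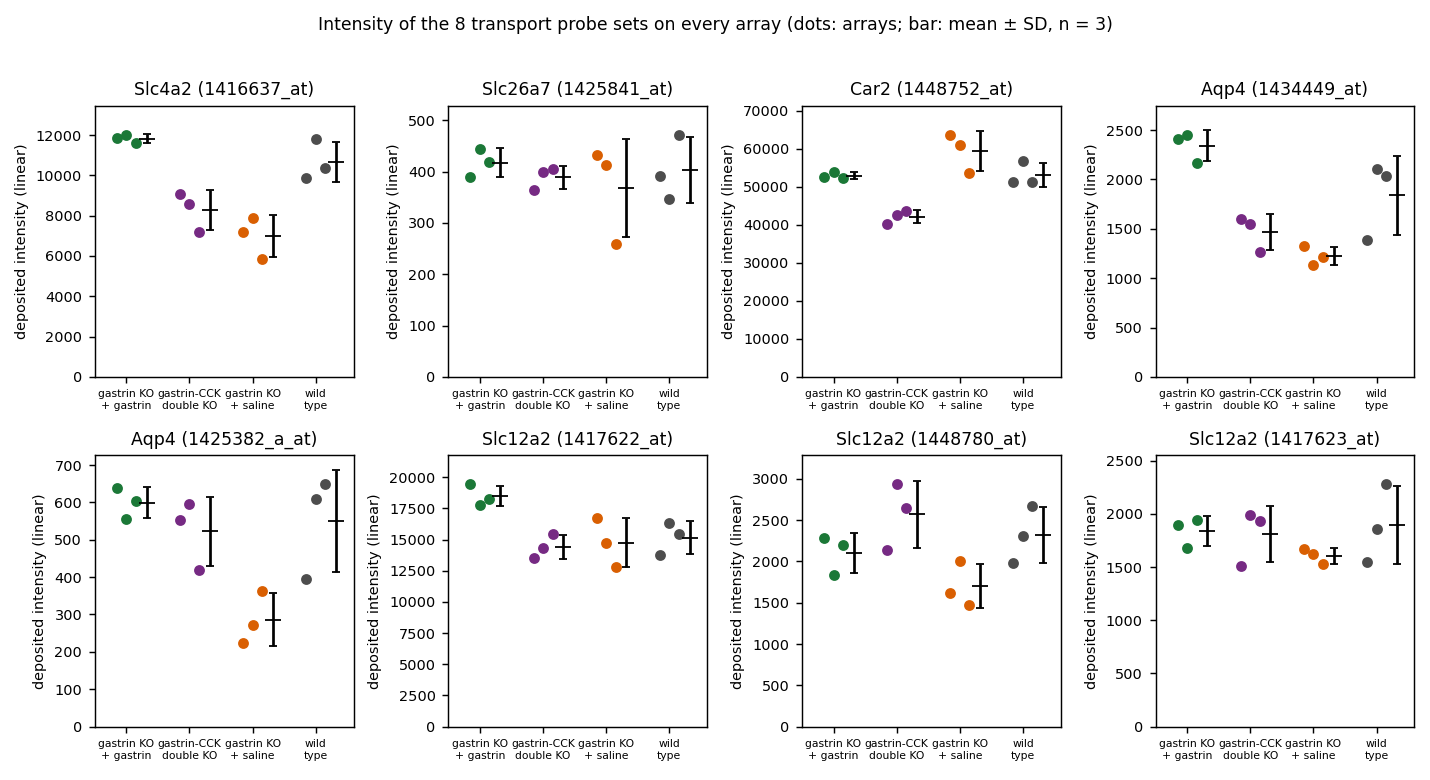
Deposited intensity, on a linear scale from 0, of the 8 probe sets on every array, with dots for arrays and a bar for the mean ± SD of 3 arrays. The 3 gastrin-infused knockout arrays of Slc4a2 lie between 11598 and 12013 units and the 3 saline-infused ones between 5847 and 7889, while the groups of Slc26a7 overlap throughout.

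Slc4a2 read 11861, 12013 and 11598 units on the gastrin-infused knockout arrays. It read 9087, 8592 and 7182 units in the double knockout and 7202, 7889 and 5847 in the saline-infused knockout. It read 9872, 11787 and 10366 units in wild type. The 6 arrays of the groups with gastrin, infused or their own, lay between 9872 and 12013 units, and the 6 arrays of the groups without it between 5847 and 9087, with no overlap. Of the 8 probe sets Slc4a2 was the only one without overlap in this split, which was made for description after its values were seen, and 1.45% of all probe sets were without overlap in the same direction.

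Gastrin infusion raised Slc4a2 to a mean of 11824 ± 210 units in the gastrin-infused knockout, against 6979 ± 1039 in the saline-infused knockout (1.71-fold, log2 fold change 0.77 ± 0.13 SE, adjusted p = 0.0332). The saline-infused knockout was lower than wild type, which averaged 10675 ± 994 units (log2 fold change -0.62 ± 0.13, adjusted p = 0.0472). These comparisons share the saline-infused arrays. The gastrin-infused knockout differed from wild type by 0.15 on the log2 scale, with a 95% interval from -0.14 to 0.44 (adjusted p = 0.707), and its arrays overlapped the wild-type ones. The spread also differed: the SD was 1.78% of the mean in the gastrin-infused knockout, 11.9% in the double knockout, 14.9% in the saline-infused knockout and 9.31% in wild type.

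In the double knockout Slc4a2 averaged 8287 ± 988 units, below every wild-type array without passing the test (-0.37 ± 0.13, adjusted p = 0.153). It overlapped the saline-infused knockout (0.25 ± 0.13, adjusted p = 0.303). The gastrin-infused knockout was higher than the double knockout (0.52 ± 0.13, adjusted p = 0.0489). The order of the means was therefore gastrin-infused knockout, wild type, double knockout and saline-infused knockout, in which no group passed the test against its neighbour.

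The sizes for Slc4a2 were steadier than the calls. With each array left out in turn, the change on gastrin infusion ranged from 0.65 to 0.87 and lost its call in 6 of 12 cases, which were each gastrin-infused array (adjusted p = 0.0821, 0.098 and 0.0795), saline-infused arrays 1 and 3 (adjusted p = 0.0809 and 0.0648) and wild-type array 3 (adjusted p = 0.054). The change of the saline-infused knockout relative to wild type ranged from -0.71 to -0.50 and kept its call only without double-knockout array 3 (adjusted p = 0.0383). Without the 2 wild-type arrays of high Gapdh ratio it was -0.58 (adjusted p = 0.292), and with that ratio as a covariate -0.53 (adjusted p = 0.187). Against the double knockout, the gastrin-infused knockout kept its call only without saline-infused array 2 or 3 (range 0.42 to 0.59, adjusted p up to 0.128). The 100 probe sets nearest to Slc4a2 in mean intensity had median changes of opposite sign to it on gastrin infusion (-0.09) and in the saline-infused knockout relative to wild type (0.07). In the double knockout relative to wild type they shifted the same way as Slc4a2 by a smaller amount (median -0.14). The same held for the gastrin-infused against the double knockout (median 0.10). In the double against the saline-infused knockout their median was -0.20, opposite in sign to the 0.25 of Slc4a2.

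Aqp4 was measured by a brighter probe set, 1434449_at, and a dimmer one, 1425382_a_at, whose levels are not compared with each other. The brighter read 2407, 2453 and 2162 units in the gastrin-infused knockout. It read 1597, 1549 and 1264 in the double knockout and 1322, 1137 and 1214 in the saline-infused knockout. In wild type it read 1382, 2103 and 2034. All gastrin-infused arrays were above all others, and wild-type array 1 was far below the other wild-type arrays and inside the range of the double knockout.

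On the brighter probe set Aqp4 rose with gastrin infusion, at 2341 ± 156 units in the gastrin-infused knockout against 1224 ± 92.9 in the saline-infused knockout (1.91-fold, 0.94 ± 0.16, adjusted p = 0.0369). It was higher in the gastrin-infused than in the double knockout, which averaged 1470 ± 180 units (0.68 ± 0.16, adjusted p = 0.0463). Wild type averaged 1840 ± 398 units, and neither the saline-infused knockout (-0.57 ± 0.16, adjusted p = 0.118) nor the double knockout (-0.31 ± 0.16, adjusted p = 0.348) nor the gastrin-infused knockout (0.37 ± 0.16, adjusted p = 0.43) passed the test against it. Wild-type array 1 had a Gapdh ratio of 1.51, while wild-type array 2, the highest of its group here, had 2.00. Leaving out wild-type array 1 took the saline-infused knockout to -0.76 against wild type (adjusted p = 0.0324). It was the only 1 of the 12 fits without a single array in which this difference passed the test.

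The dimmer Aqp4 probe set read 639, 556 and 603 units in the gastrin-infused knockout. It read 552, 596 and 420 in the double knockout and 224, 272 and 363 in the saline-infused knockout. It read 394, 609 and 648 in wild type. The saline-infused arrays were below the arrays of all other groups, and wild-type array 1 was again the lowest of its group. The difference of the gastrin-infused from the saline-infused knockout was as large as on the brighter probe set but did not pass the test (1.09 ± 0.23, adjusted p = 0.0616), and the same held for the saline-infused knockout relative to wild type (-0.94 ± 0.23, adjusted p = 0.0782). Wild-type array 1 had a Gapdh ratio of 1.51, while wild-type array 2, at 609 units, had 2.00. Leaving out wild-type array 1 took the value relative to wild type to -1.16 (adjusted p = 0.048). It was the only 1 of the 12 fits without a single array that brought that value past the test. Without both wild-type arrays of high Gapdh ratio the value was -1.21, which is given as a size only because 1 wild-type array was left. With that ratio as a covariate it was -1.02 and did not pass (adjusted p = 0.185). The difference on gastrin infusion passed the test with quantile normalization (1.10, adjusted p = 0.0411) and when only the brighter part of the probe sets was tested (adjusted p = 0.0107).

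The Aqp4 probe sets differed in the double knockout. On the dimmer one the double knockout stood 0.88 ± 0.23 above the saline-infused knockout with no overlap (adjusted p = 0.06), while on the brighter one it was 0.26 ± 0.16 above it with overlap (adjusted p = 0.418). Leaving out wild-type array 1 or saline-infused array 3 brought the dimmer one past the test (adjusted p = 0.0409 and 0.0488). Over the 12 arrays the log2 values of the Aqp4 probe sets had a Pearson correlation of 0.79, and their deviations from the group means 0.63. These arrays share groups and labelling, and the correlations are descriptions.

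For the brighter Aqp4 probe set, too, the sizes were steadier than the calls. With each array left out in turn, the brighter probe set's rise on gastrin infusion ranged from 0.88 to 0.99 and lost its call in 9 of 12 cases, with adjusted p up to 0.111. It kept the call without wild-type array 1 or 2 or double-knockout array 3 (adjusted p = 0.0179, 0.0389 and 0.0391). Its difference between the gastrin-infused and the double knockout ranged from 0.57 to 0.74 and kept its call only without wild-type array 1 or 2 (adjusted p = 0.0176 and 0.0467).

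Slc12a2 was covered by 3 probe sets designed from the same transcript record. The brightest, 1417622_at, read 19421, 17779 and 18295 units in the gastrin-infused knockout. It read 13538, 14317 and 15444 in the double knockout, 16739, 14693 and 12812 in the saline-infused knockout, and 13725, 16311 and 15440 in wild type. All gastrin-infused arrays lay above all 9 other arrays, and the other groups overlapped one another. The gastrin-infused mean of 18498 ± 840 units compared with a saline-infused mean of 14748 ± 1964 (0.33 ± 0.11, adjusted p = 0.173), a double-knockout mean of 14433 ± 958 (0.36 ± 0.11, adjusted p = 0.0911) and a wild-type mean of 15159 ± 1316 (0.29 ± 0.11, adjusted p = 0.355), none of which passed the test.

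The dimmer Slc12a2 probe sets did not share that order. Probe set 1448780_at read 2283, 1831 and 2195 units on gastrin-infused arrays, 2135, 2933 and 2648 on double-knockout arrays, 1624, 2002 and 1478 on saline-infused arrays, and 1983, 2314 and 2668 on wild-type arrays. The double-knockout arrays lay above the saline-infused ones with no overlap and without passing the test (0.60 ± 0.17, adjusted p = 0.0745), which the brightest probe set did not show (-0.02 ± 0.11, adjusted p = 0.953). Probe set 1417623_at read 1894, 1678 and 1945 units on gastrin-infused arrays, 1512, 1991 and 1931 on double-knockout arrays, 1668, 1623 and 1526 on saline-infused arrays, and 1547, 1861 and 2277 on wild-type arrays. It passed in no comparison, with changes between -0.22 and 0.19. Over the 12 arrays the deviations of the dimmer probe sets from their group means had a Pearson correlation of 0.84, so they varied together from array to array.

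Slc26a7 was the dimmest of the genes by rank, with a mean above 48.7% of all probe sets. It read 389, 445 and 418 units on gastrin-infused arrays, 364, 399 and 405 on double-knockout arrays, 433, 414 and 259 on saline-infused arrays, and 392, 346 and 472 on wild-type arrays. All groups overlapped. The means were 417 ± 28 units in the gastrin-infused knockout, 389 ± 22.1 in the double knockout, 369 ± 95.4 in the saline-infused knockout and 403 ± 63.8 in wild type, and no comparison passed the test. The change on gastrin infusion was 0.21 ± 0.19 (adjusted p = 0.651), with a 95% interval from -0.22 to 0.65, and without saline-infused array 3 it was -0.023. The saline-infused knockout differed from wild type by -0.15 ± 0.19 (adjusted p = 0.73), and without that array by 0.082.

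Car2 was among the brightest probe sets of the array, with a mean above 99.9% of all. It read 52594, 53824 and 52183 units on gastrin-infused arrays, 40220, 42526 and 43599 on double-knockout arrays, 63629, 60980 and 53508 on saline-infused arrays, and 51157, 56639 and 51279 on wild-type arrays. The double-knockout arrays lay below all 9 others, and the other groups overlapped. With gastrin infusion Car2 averaged 52867 ± 854 units in the gastrin-infused knockout, against 59372 ± 5249 in the saline-infused knockout, which did not pass the test and ran opposite in sign to Slc4a2 and Aqp4 (-0.16 ± 0.08, adjusted p = 0.354). The saline-infused knockout relative to wild type, which averaged 53025 ± 3130 units, gave 0.16 ± 0.08 (adjusted p = 0.319), and the gastrin-infused knockout differed from wild type by -0.0028, with a 95% interval from -0.18 to 0.17 (adjusted p = 1).

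In the double knockout Car2 averaged 42115 ± 1727 units and was lower than in the saline-infused knockout (-0.49 ± 0.08, adjusted p = 0.0109). It was higher in the gastrin-infused than in the double knockout (0.33 ± 0.08, adjusted p = 0.0438), and the double knockout stood at -0.33 ± 0.08 against wild type (adjusted p = 0.0504, and 0.0377 without saline-infused array 3). The 100 probe sets nearest to Car2 in brightness moved by as much: their median change was -0.47 against the saline-infused knockout with 65 of the 100 past the test downward, and -0.39 against wild type with 42 past it. Between the gastrin-infused and the double knockout their median was 0.41, with 55 past the test upward. Quantile normalization, which sets the distribution of every array equal, turned the sign of all 3 Car2 values, to 0.051 for the double against the saline-infused knockout, 0.070 for it relative to wild type and -0.062 for the gastrin-infused against the double knockout. The value against the saline-infused knockout kept its call with every single array left out (-0.57 to -0.44), and the one between the gastrin-infused and the double knockout lost it in 9 of 12 cases (0.30 to 0.35, adjusted p up to 0.12), keeping it without wild-type array 2 or saline-infused array 1 or 3 (adjusted p = 0.0445, 0.0482 and 0.0288).

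**Figure D2:**
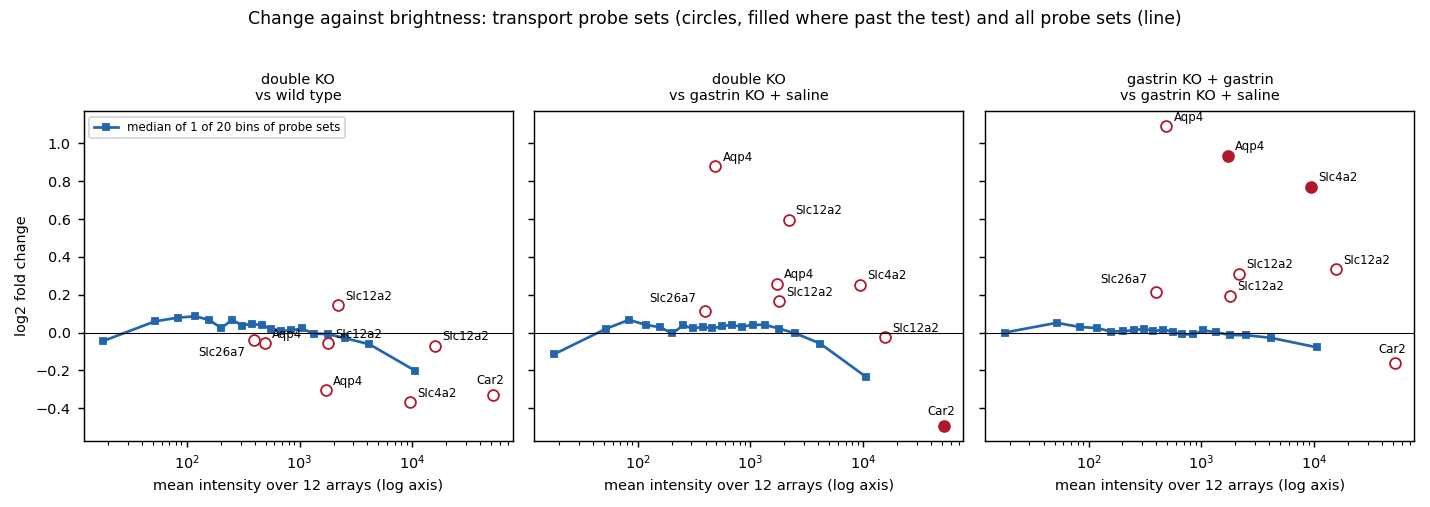
Log2 fold change of the 8 probe sets (circles, filled where past the test) against their mean intensity over 12 arrays on a log axis, with squares for the median of each of 20 bins of all probe sets by brightness. In the double knockout the squares bend down at the bright end, to -0.20 against wild type and -0.23 against the saline-infused knockout. Car2 lies beyond the last square, whose bin spans 5857 to 92604 units. Probe sets of 20000 units or more had medians of -0.34 and -0.43 in these comparisons. On gastrin infusion Slc4a2 and Aqp4 lie far above a line that reaches only -0.08.

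**Figure D3:**
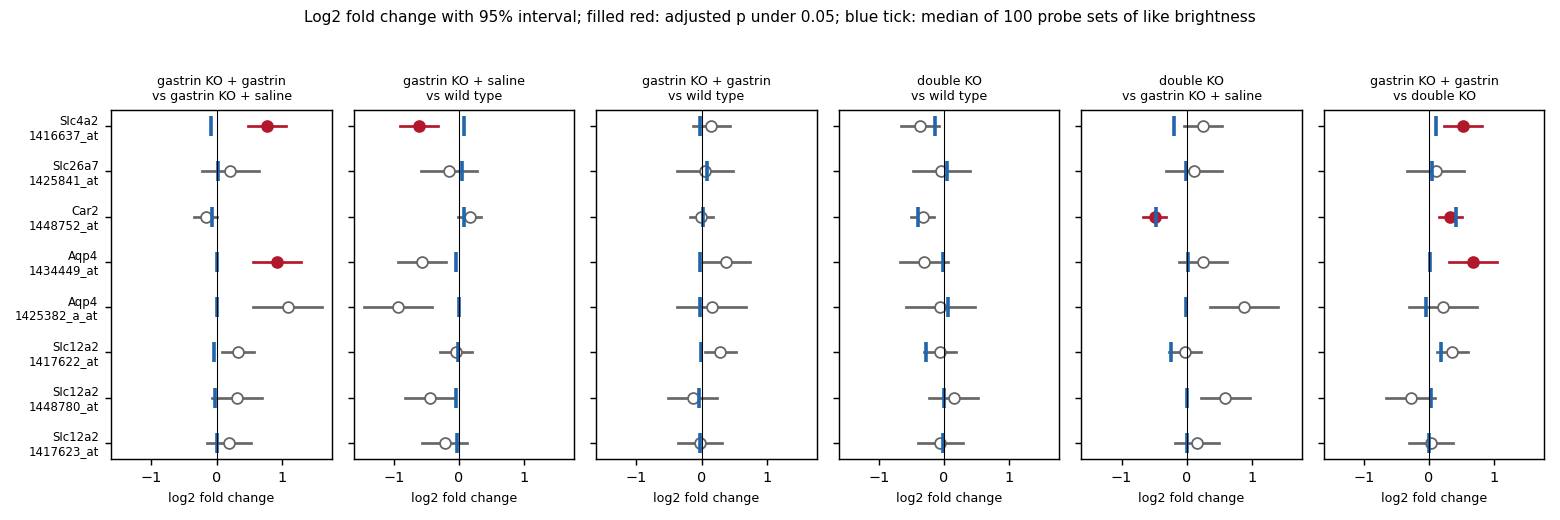
Log2 fold change of the 8 probe sets in the 6 comparisons, with 95% intervals, filled red where the adjusted p was under 0.05, and a blue tick at the median change of the 100 probe sets nearest in brightness. Car2 lies at its blue tick in the comparisons with the double knockout, and Slc4a2 and Aqp4 lie away from theirs on gastrin infusion.

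Counted over all 8 probe sets, 5 had every gastrin-infused array above every saline-infused array, against 10.5% of all probe sets, and the median change was 0.32 against 0 for all probe sets. In the saline-infused knockout relative to wild type 3 had every array below, against 12.4% of all probe sets, with a median of -0.34 against 0. In the double knockout against wild type 2 had every array below, Slc4a2 and Car2, against 12.9% of all, with a median of -0.06. In the double knockout against the saline-infused knockout 2 were above and 1 below, against 13.5% and 12.7% of all, with a median of 0.21. In the gastrin-infused knockout, 2 were above wild type and 4 above the double knockout, against 7.31% and 13.1% of all. Probe sets of 1 gene share their source, so these counts are not counts of genes.

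Some parietal cell markers changed in the same comparisons as Slc4a2 and Aqp4. The summed intensity of the 12 markers ranged from 194136 to 201865 units in the gastrin-infused knockout, 123573 to 136283 in the double knockout, 128445 to 157701 in the saline-infused knockout and 185699 to 219479 in wild type. Atp4a and Atp4b made up most of these sums, and both lie in the bright range, where the 243 probe sets of 20000 units or more had a median change of -0.34 in the double knockout relative to wild type and -0.43 relative to the saline-infused knockout. Only Ptger3, a prostaglandin receptor, had a group mean within the noise, in the saline-infused knockout. On On gastrin infusion 5 of the 12 rose, against 0.773% of all probe sets, among them Atp4a, a proton pump subunit, at 58696 ± 2323 units in the gastrin-infused knockout against 38737 ± 5321 in the saline-infused knockout (0.61 ± 0.11, adjusted p = 0.0393), and the median change of the 12 was 0.49. The other 7 did not pass, and 3 of them, Esrrg, Ezr and Ckmt1, had lower means in the gastrin-infused than in the saline-infused knockout. In the saline-infused knockout relative to wild type 4 of the 12 fell, against 1.37% of all probe sets, with a median of -0.52. Slc4a2 itself changed by 0.77 and -0.62 in these comparisons, and the part of the parietal markers in its change was not tested.

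Markers of other cells that carry these proteins were also summed. For red blood cells, which are rich in carbonic anhydrase, the 6 measured of 12 markers summed to 1897 to 2030 units in the gastrin-infused knockout, 1170 to 1605 in the double knockout, 1919 to 2060 in the saline-infused knockout and 1094 to 1517 in wild type. Of these markers 1, Hbb-b2, passed the test wherever an infused group was set against an uninfused one. For the saline-infused and the gastrin-infused knockout against wild type, 2.08% and 0.11% of all probe sets passed in either direction. Against the double knockout 5.98% and 5.83% passed, in the same order. Hbb-b2 averaged 467, 89.3, 453 and 138 units in the group order of the sums, and Alas2 433, 289, 455 and 265. Hba-a1, the other measured globin, averaged 214, 221, 197 and 198, so the sums differed mainly through Hbb-b2 and Alas2. Of 5 measured surface mucous cell markers, 4 were lower in the double knockout than in wild type, against 4.14% of all probe sets past the test in either direction. The summed values were 246026 to 263199 against 343191 to 411379 units. Those 4, Muc5ac, Gkn1, Gkn2 and Tff1, also lie in the bright range that was lower as a whole in the double knockout. For glia and nerve, where Aqp4 or its relatives can be found, the 6 measured of 8 markers summed to 2976 to 3420 units in the gastrin-infused knockout, 2481 to 3223 in the double knockout, 2664 to 2966 in the saline-infused knockout and 2613 to 3044 in wild type, and none passed the test in any comparison. Forestomach squamous markers, a sign of where the scraping was taken, summed to 13847 to 37664 units in the gastrin-infused knockout, 14522 to 64068 in the double knockout, 27859 to 77918 in the saline-infused knockout and 22255 to 40561 in wild type. With gastrin infusion 0 of the 13 measured had a higher mean log2 value, and the median change was -1.15. In the saline-infused knockout relative to wild type 12 were higher, with a median of 0.96. In each comparison 1 of the 13 passed the test, downward and upward in turn, against 1.25% and 2.08% of all probe sets in either direction. Ivl was above the noise on 0 of 12 arrays. The list for enterochromaffin-like cells, the histamine cells that carry the gastrin receptor, had 5 measured genes, Hdc, Chga, Chgb, Gast and Cck. Gast and Cck encode the hormones gastrin and CCK themselves and do not mark these cells. Gast was deleted in every knockout group and Cck in the double knockout, so the sums include deleted genes. In each group 1 to 3 of the 5 had a mean within the noise. Their sums were 14741 to 22298 units in the gastrin-infused knockout, 2626 to 3672 in the double knockout, 2585 to 2931 in the saline-infused knockout and 7952 to 13303 in wild type. The 12 stroma and smooth muscle markers summed to 20273 to 40967 units in the gastrin-infused knockout, 12727 to 16564 in the double knockout, 11077 to 20828 in the saline-infused knockout and 19162 to 22627 in wild type. All 12 of them had a higher mean log2 value with gastrin infusion, and none passed the test. The part of any of these in the results was not tested.

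The genes whose pattern was most like each gene were taken by Pearson correlation of log2 intensity over the 12 arrays, among 7192 genes. Nearest to Slc4a2 were Ckb, a creatine kinase of parietal cells, Cdc42ep1 and Coq9 (r = 0.98, 0.98 and 0.98). Ckb averaged 15226 units in the gastrin-infused knockout, 7646 in the double knockout, 5948 in the saline-infused knockout and 14136 in wild type, the same order as Slc4a2 with the first pair close. Nearest to Aqp4 were Slc16a7, a monocarboxylate transporter, Rdh7, a retinol dehydrogenase, and Grcc10 (r = 0.96, 0.94 and 0.94). Nearest to Car2 were Tmsb4x, 2210407C18Rik and Psca (r = 0.97, 0.97 and 0.97), which were as bright as Car2 and lowest in the double knockout. For Slc12a2 they were Adk, Slc25a4 and Bet1l (r = 0.89, 0.86 and 0.86), and for Slc26a7 5031439G07Rik, Olfr544 and Bcl7c (r = 0.88, 0.80 and 0.79). Slc4a2 and the brighter Aqp4 probe set had r = 0.90 over the arrays and 0.49 in their deviations from the group means, and Slc4a2 and Car2 had r = 0.01 and 0.51. The arrays fall into groups, and these values have no test.

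Other ion and water transport genes were taken from 7 lists by family, of which 65 of 87 genes were measured on a probe set of their own. On gastrin infusion 2 of the 65 rose and none fell (3.08%, against 1.25% of all probe sets). They were Kcnq1 and Kcne2, both also among the parietal markers, the subunits of the potassium channel that returns potassium to the proton pump. Kcnq1 averaged 3886 ± 270 units in the gastrin-infused knockout against 1678 ± 507 in the saline-infused knockout (1.25 ± 0.24, adjusted p = 0.0432), and Kcne2 6826 ± 581 against 3656 ± 442 (0.90 ± 0.13, adjusted p = 0.0255). In the saline-infused knockout relative to wild type 3 fell and none rose (4.62%, against 2.08%): the same pair and Car4, a membrane-bound carbonic anhydrase, at 154 ± 6.08 against 261 ± 29.1 units (-0.76 ± 0.13, adjusted p = 0.0301). Car4 was dim, at 147 to 158 units on the saline-infused arrays, where the noise was 88.75 to 95. It has 2 probe sets, of which only the brightest was read. Between the gastrin-infused knockout and wild type none of the 65 passed.

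**Figure D4:**
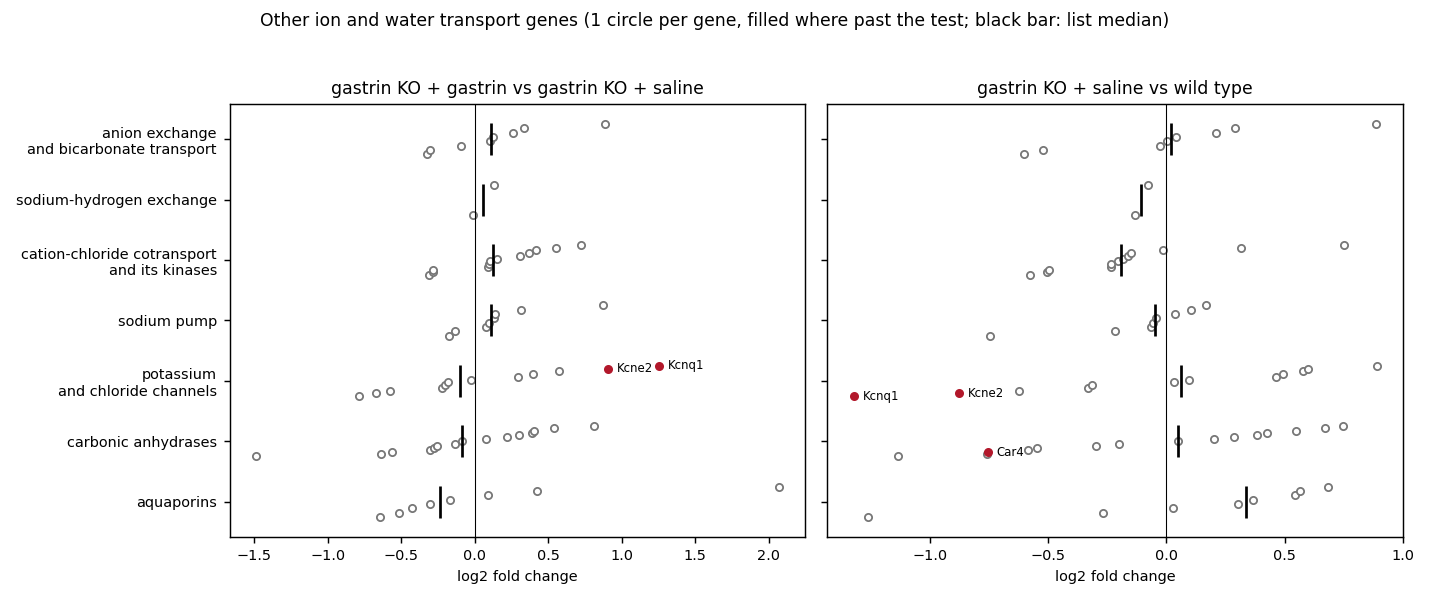
Log2 fold change of 65 other ion and water transport genes by list, 1 circle per gene, filled red where past the test, with a black bar at the list median. Kcnq1 and Kcne2 stand at 1.25 and 0.90 on gastrin infusion and at -1.32 and -0.88 in the saline-infused knockout relative to wild type, where Car4 also passed at -0.76.

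No other member of the anion exchange list (8 measured of 11) or of the aquaporins (8 of 11) passed in any of the 6 comparisons. Slc26a6, another chloride and bicarbonate exchanger, came nearest on gastrin infusion, at 884 ± 104 units in the gastrin-infused knockout against 480 ± 74.8 in the saline-infused knockout (0.89 ± 0.20, adjusted p = 0.0679). Aqp3, a water and glycerol channel, ran opposite to Aqp4, at 2216 ± 615 units in the gastrin-infused knockout against 3148 ± 707 in the saline-infused knockout, without passing the test (-0.51 ± 0.24, adjusted p = 0.332). Both were chosen after their values were seen. The anion exchange list had a median change of 0.11 on gastrin infusion and 0.02 in the saline-infused knockout relative to wild type, and the aquaporins had -0.24 and 0.34, each against 0 for all probe sets.

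Of the 12 measured cation-chloride cotransporters and their kinases, the relatives and regulators of Slc12a2, only Wnk1, a kinase of the pathway, passed, and only in the double against the saline-infused knockout, at 4374 ± 152 against 3102 ± 290 units (0.50 ± 0.11, adjusted p = 0.0368). In that comparison 3 of the 65 genes rose and 3 fell (9.23%, against 5.98% of all probe sets). The others that rose were Car4, at 233 ± 27.2 against 154 ± 6.08 units (0.59 ± 0.13, adjusted p = 0.037), and Kcnq1, at 3195 ± 651 against 1678 ± 507 units (0.95 ± 0.24, adjusted p = 0.0484). The 3 that fell were Fxyd3 and Atp1b1, a regulator and a subunit of the sodium pump, and Car13, a cytosolic carbonic anhydrase at 1235 ± 123 against 1714 ± 102 units (-0.48 ± 0.11, adjusted p = 0.0451).

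Fxyd3 and Atp1b1 were bright, like Car2. Fxyd3 averaged 45833 ± 2409 units in the gastrin-infused knockout, 29943 ± 857 in the double knockout, 42916 ± 2867 in the saline-infused knockout and 44150 ± 1635 in wild type, and was lower in the double than in the saline-infused knockout (-0.52 ± 0.07, adjusted p = 0.00662) and wild type (-0.56 ± 0.07, adjusted p = 0.00659). It was the only 1 of the 65 past the test in the double knockout against wild type (1.54%, against 4.14%). Atp1b1 averaged 39470 ± 858 units in the gastrin-infused knockout, 26886 ± 453 in the double knockout and 35949 ± 3460 in the saline-infused knockout. Together with Car15, Fxyd3 and Atp1b1 were the 3 of 65 higher in the gastrin-infused than in the double knockout (4.62%, against 5.83%). Among the 15 carbonic anhydrases, each with a probe set, the changes on gastrin infusion had a median of -0.09 and none passed, with 5 above and 1 below without overlap, against 10.5% of all probe sets above. The share of all probe sets below is not given, so the 1 below is only a count. The median includes Car10, which was above the noise on 0 of 12 arrays, and Car14, which was above it on 6.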

How the data were processed

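RNA from scraped fundic mucosa, about 1 µg per sample per the labels' protocols, was purified with Trizol and then a column, and its biotin-labelled copies were hybridised to 12 arrays. Each array has 1 deposited intensity for every probe set, a linear whole number that can be negative. How the authors computed and scaled these intensities, and with which software, is not given in the sources used here. The 64 control probe sets were left out of 22690. Symbols came from the platform annotation: 20380 probe sets had 1 symbol, 691 several and 1555 none listed, and gene identifiers of 20351 matched the gene table of assembly GRCm38.p6, which changed 0 symbols.

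The array medians were alike and the values were left unscaled. After a floor of 16 and log2, limma 3.58.1 fitted group means over all 12 arrays at once (R 4.3.3; 8 residual and 1.10 prior degrees of freedom), with 6 contrasts adjusted over 22626 probe sets. Means and SDs are of deposited intensities, fold changes are differences of log2 means, and the noise of an array is its lowest percentile (1) with the sign turned. The number of arrays limits the precision. The test was tried on simulated data with 200 changed probe sets. Tables and figures used Python 3.11.15, pandas 2.3.3, numpy 2.4.6 and matplotlib 3.10.9.

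The genes, the 7 family lists and the marker lists were chosen with earlier results of these data known. The naming rule took every probe set of the 5 genes, family-list genes past the test, the 3 genes most correlated with each gene among genes whose brightest probe set averaged at least the median of all, and Gast, Atp4a, Atp4b and cell markers as checks. A family-list or marker gene was read from its brightest probe set. The lists cover anion exchange, sodium-hydrogen exchange (2 of 9 measured, none past the test), cation-chloride cotransport, the sodium pump, potassium and chloride channels, carbonic anhydrases and aquaporins. Alternatives changed the normalization, the filter on dim probe sets, the floor, the covariates, the arrays and the moderation.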

Additional observations from a re-analysis of the deposited data

How the results depend on the processing

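The direction of Slc4a2 and of both Aqp4 probe sets on gastrin infusion and in the saline-infused knockout relative to wild type was kept under every alternative run, while the counts of the 8 probe sets past the test were not stable. On gastrin infusion the 2 calls became 1 with the replicate block, 1 with the Gapdh ratio as a covariate, 0 in a fit of only the 2 groups compared and 1 without the 2 wild-type arrays of high Gapdh ratio, an alternative chosen after seeing the data, and 3, with the dimmer Aqp4 probe set, under quantile normalization and among the brighter probe sets. For the saline-infused knockout relative to wild type the 1 call became 0 with arrays centred on their medians, with a floor of 1, with the Gapdh covariate, with only the 2 groups and without those 2 arrays, and 3 among the brighter probe sets alone, where fewer are tested. For the double knockout, the count was 1 against wild type with a floor of 64 and, against the saline-infused knockout, 0 with quantile normalization, 0 with only the 2 groups and 3 among the brighter probe sets. For the gastrin-infused against the double knockout the 3 calls became 0 with median centring, a floor of 1 or only the 2 groups, and 1 with the replicate block, the Gapdh covariate or without those 2 arrays. With each array left out, the counts ranged from 0 to 2 on gastrin infusion, 0 to 2 for the saline-infused knockout and 0 to 1 for the double knockout against wild type, 1 to 2 for the double against the saline-infused knockout, 0 to 0 for the gastrin-infused knockout relative to wild type and 0 to 2 for it against the double knockout.

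Signs turned, beside the Car2 values with quantile normalization (0.070 and 0.051 for the double knockout relative to wild type and to the saline-infused knockout, 0.0076 and -0.062 for the gastrin-infused knockout relative to wild type and to the double knockout), only for values that passed no test. Quantile normalization gave Slc12a2 1417622_at 0.14 and 0.22 for the double knockout relative to wild type and to the saline-infused knockout, and 1417623_at 0.00058 for the gastrin-infused knockout relative to wild type. With the Gapdh covariate 1417622_at was 0.0076 in the saline-infused knockout, and in the gastrin-infused knockout Car2 was 0.048 and Slc26a7 -0.039, each against wild type. Without the 2 wild-type arrays of high Gapdh ratio 1448780_at was -0.065 in the double knockout, and in the gastrin-infused knockout Aqp4 1425382_a_at was -0.11, Car2 0.044 and Slc26a7 -0.18, each against wild type. With 1 array left out the turned values ranged, for Slc26a7, from -0.023 to 0.35 on gastrin infusion, -0.29 to 0.082 for the saline-infused, -0.15 to 0.079 for the double and -0.046 to 0.18 for the gastrin-infused knockout relative to wild type, and -0.12 to 0.25 for the double against the saline-infused knockout. For Slc12a2 1417622_at they ranged from -0.14 to 0.053 for the saline-infused knockout relative to wild type, and from -0.12 to 0.071 for the double against the saline-infused knockout. For 1417623_at they ranged from -0.20 to 0.084 and -0.17 to 0.11 for the double and the gastrin-infused knockout against wild type, and -0.095 to 0.10 between these knockouts. Aqp4 1425382_a_at ranged from -0.28 to 0.093 and -0.070 to 0.29 for the double and the gastrin-infused knockout against wild type, and Car2 from -0.028 to 0.046 for the gastrin-infused knockout relative to wild type. The causes were not tested.

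Over all probe sets, the 282 calls on gastrin infusion became 20, the 470 of the saline-infused knockout 22, and the 936 of the double knockout against wild type 43 with only the 2 groups compared, and the first of these became 593 and the second 746 with quantile normalization. With 1 array left out they ranged from 67 to 264, 94 to 533 and 323 to 706, and the 1352 and 1319 calls of the double knockout against the saline-infused and of the gastrin-infused against the double knockout from 496 to 1251 and 541 to 1212, so the shares of all probe sets past the test move too. The 470 became 46 with the Gapdh covariate and 77 without the 2 wild-type arrays. Same-numbered arrays of different groups had deviations correlated from -0.12 to 0.20, with a median of 0.0080 and 1 of 18 pairs over 0.1. For arrays of different number the range was -0.18 to 0.19, with a median of 0.0063 and 4 of 36 pairs over 0.1. Whether same-numbered arrays were handled together was not tested. With the replicate block the counts over all probe sets were 140 on gastrin infusion, 239 for the saline-infused knockout and 8 for the gastrin-infused knockout relative to wild type, where the main count was 25. Arrays carry no counts, so signal over background sets what they can show: Slc26a7 and the dimmer Aqp4 probe set were closest to it, at 2.36 times the noise or more on every array.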
